A study of Mus musculus with 13 samples.

Results

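Mouse pre-iPSCs lacking Kdm3b were compared with wild-type pre-iPSCs before any reprogramming compound was given. The comparison held the libraries titled DMSO, replicates A and B of each genotype, so 4 of the 13 libraries of the study. All 20325 genes of the files were read, 14324 of them had enough counts to be tested, and differences were also taken within each replicate letter. Pre-iPSCs are stalled intermediates on the way from mouse embryonic fibroblasts to induced pluripotent stem cells. The wild-type group (WT) is labelled wildtype and the knockout group (KO) carries a Kdm3b knockout, for which the labels used here give neither the allele nor the number of clones. Both were at day 0 and were kept, per the labels, in embryonic stem cell medium with 15% fetal bovine serum and leukaemia inhibitory factor (LIF). The treatment label of these libraries names AA+2i, which is ascorbic acid at 50 µg/mL with CHIR-99021, an inhibitor of the kinase GSK3, and PD-0325901, an inhibitor of the kinase MEK. They were read as untreated, from the title and the time point. The other libraries used were WT and KO at day 2 and day 10 of AA+2i, 2 each, and 1 of V6.5 embryonic stem cells (ESCs), which entered no test. Whether A and B came from separate cultures is not in the labels, so p-values measure the spread between these libraries, which may be technical.

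Kdm3b encodes a demethylase of the KDM3 family, which removes methyl groups from lysine 9 of histone H3 (H3K9). Methylation of H3K9 marks silent chromatin, and in reprogramming it is known as a barrier that keeps pluripotency genes closed. Enzymes of this family need iron and 2-oxoglutarate, and ascorbic acid supports their activity. Pre-iPSCs express the reprogramming factors and have left part of the fibroblast programme, but have not switched on the network of naive pluripotency, the state of ESCs and the early epiblast.

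The 4 day 0 libraries held from 19261268 to 26430050 expected counts, the unit in which RSEM shares reads that fit several genes. Levels are given as CPM, the depth-scaled count that edgeR gives from the effective size of the library, always in the order A, B. Levels of different genes are not comparable on this scale, since it is not corrected for transcript length. A difference is a log2 fold change of KO over WT with its standard error (SE) from edgeR's quasi-likelihood test. It was called where the Benjamini-Hochberg false discovery rate (FDR) over all 14324 genes was under 0.05. In bulk RNA, fewer cells of a type and less RNA per cell cannot be told apart.

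The targeted gene checked the labels. Kdm3b had 182 and 249 CPM in WT and 44.4 and 65.1 CPM in KO, a log2 fold change -1.98, SE 0.378, FDR = 0.0132. Both KO libraries lay below both WT libraries, and within letters the difference was -2.04 in A and -1.93 in B. Transcript from the locus was therefore reduced and not absent, and these gene-level values hold nothing on which exons were read. The call was lost without WT B (log2 fold change -1.71, FDR = 0.0901), without KO A (-1.71, FDR = 0.0955) and with only the 4 day 0 libraries in the fit (-1.96, FDR = 0.0774). The other family members did not pass the test. Kdm3a, which encodes a demethylase of the same marks, had 176 and 187 CPM in WT and 189 and 216 in KO (log2 fold change 0.16, SE 0.176, FDR = 0.827). Jmjd1c, the remaining member, had 206 and 289 CPM in WT and 209 and 264 in KO (log2 fold change -0.07, SE 0.265, FDR = 0.998). Of 7 tested H3K9 demethylase genes outside the family 0 were called by edgeR or DESeq2, and 1 had an unadjusted p under 0.05. With the replicate letter as a block in edgeR, Jhdm1d (Kdm7a) was called higher in all 12 libraries (FDR = 0.0256) and in the 8 of days 0 and 2 (FDR = 2.1e-05), at 0.92 in A and 0.81 in B, and Kdm4c was called lower in the 8 (FDR = 0.0432). Among 19 tested genes of H3K9 methyltransferases and H3K9 readers 1 was called higher and 0 lower, and 2 and 3 with the block in the 8 libraries. That block called 16.9% of all genes higher and 17.1% lower.

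In all, 1187 genes were called (8.29% of those tested), 386 of them higher in KO (2.69%) and 801 lower (5.59%). At an unadjusted p under 0.05 there were 2738. None of the 1187 overlapped between the groups, against 16.3% of all genes with both KO libraries above and 19.4% with both below. That separation goes with the call, so where named genes are said not to overlap or to move alike in both letters, this describes their values and adds no support. The median log2 fold change over all genes tested was 0.0036. The sizes were unequal between directions. Of the genes called lower, 326 (40.7%) differed by over 8-fold, their median log2 fold change was -2.47, and 71 (8.86%) had 0 counts in both KO libraries. Of the genes called higher, 37 (9.59%) differed by over 8-fold, the median was 1.48, and 2 (0.518%) had 0 counts in both WT libraries. At most 3 counts were left in the lower group for 168 of the genes called lower and 10 of those called higher. Such folds rest on few counts or on the prior count of the fit. The median level in the higher group was 5.49 CPM for genes called lower and 16.6 CPM for those called higher. A and B libraries differed in the same way in both genotypes at day 0. Adding the letter to the model as a replicate block raised the count to 1792 (707 higher, 1085 lower), of which 1180 were among the 1187. In the 8 libraries of days 0 and 2, with the block, 4512 of 13277 genes were called (34.0%), 2239 higher (16.9%) and 2273 lower (17.1%), and 1166 of the 1187 were among them. Genes called higher were 49.6% of the calls in that fit, against 32.5% without the block. Without any 1 of the 4 libraries the count fell to between 547 (WT B left out) and 636 (KO A left out), with 626 without WT A and 571 without KO B.

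**Figure D1:**
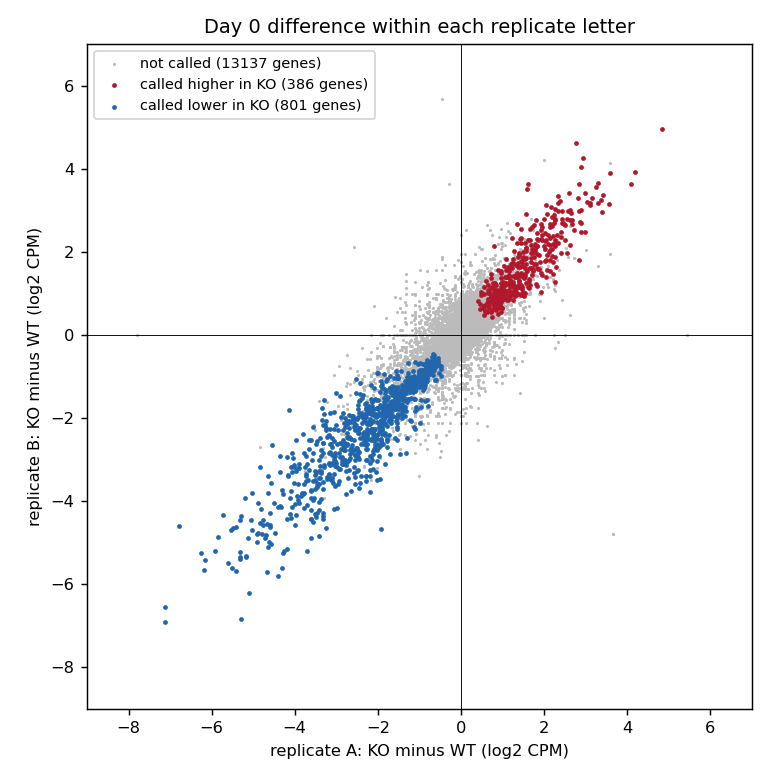
Difference between KO and WT at day 0 in replicate A (horizontal axis) against replicate B (vertical axis), as log2 CPM with a prior count of 2, 1 point per gene tested. The 386 genes called higher (red) all lie in the upper right corner and the 801 called lower (blue) in the lower left, and the blue points reach farther from 0.

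The genes with the largest excess in KO included receptors, adhesion molecules and developmental regulators. Gpr37, an orphan receptor of neural and glial cells, had 1.88 and 2.72 CPM in WT and 56.1 and 87.2 CPM in KO (log2 fold change 4.97, SE 0.366, FDR = 0.000174). Wnt5a, a ligand of non-canonical Wnt signalling, had 1.197 and 2.37 CPM in WT and 12.3 and 28.97 in KO (log2 fold change 3.54, SE 0.5999, FDR = 0.00768). Dll1, a ligand of Notch receptors, had 1.56 and 2.08 CPM in WT and 11.9 and 26.8 in KO (log2 fold change 3.41, SE 0.569, FDR = 0.00707). For each of these genes the lower KO library exceeded the higher WT library, and B was above A in both genotypes. Among adhesion genes, the protocadherin Pcdh17 stood at 0.958 and 2.77 CPM in WT and 19.2 and 43.5 in KO (log2 fold change 4.09), and the cadherin Cdh26 at 0.239 and 0.495 CPM in WT and 5.75 and 7.305 in KO (4.16). Kbtbd11, a gene of the BTB-kelch family, went from 5.79 and 4.95 to 48.3 and 46.4 CPM and had the smallest SE of those named here (log2 fold change 3.14, SE 0.204, FDR = 9.99e-05). Mmrn2, which encodes an extracellular matrix protein of blood vessels, was measured at 7.54 and 10.8 CPM in WT and 46.5 and 116 in KO (log2 fold change 3.15). Neuronal genes in this set were Nptx2, which encodes a synaptic pentraxin, at 1.72 and 2.77 CPM in WT and 14.4 and 30.7 in KO, and Drd1a, a dopamine receptor gene, at 0.598 and 0.643 CPM in WT and 4.87 and 7.21 in KO. The transmembrane gene Tmem132d had 1.596 and 1.93 CPM in WT and 20.2 and 30.1 CPM in KO. Gpr37, Cdh26 and Drd1a were at 0, 0 and 0.0534 CPM in the ESC library, and Nptx2 at 33.7.

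The genes with the largest deficit in KO were near or at 0 there. Srgn, which encodes the proteoglycan serglycin, had 103 and 82.97 CPM in WT and 0.633 and 0.7897 CPM in KO (log2 fold change -7.02, SE 0.464, FDR = 9.99e-05). Gsta1, a glutathione transferase gene with close copies that make its own share of reads uncertain, had 14.4 and 12.4 CPM in WT and 0 counts in both KO libraries, at least 184-fold lower taking 3 counts over the KO group as the floor (FDR = 9.99e-05). Both were expressed in WT and low in KO in each letter. Vnn1, a pantetheinase gene, had 10.9 and 12.8 CPM in WT and 0.0487 and 0.197 in KO (log2 fold change -6.52, SE 0.418, FDR = 9.99e-05), and Cbr2, a carbonyl reductase gene, 5.95 and 5.54 CPM in WT and 0.0974 and 0.0987 in KO (log2 fold change -5.78, SE 0.363, FDR = 9.99e-05). Trap1a, a gene of the X chromosome known from tumours and placenta, had 22.9 and 18.8 CPM in WT and 0.195 and 0.395 in KO (log2 fold change -6.11, SE 0.405, FDR = 9.99e-05). Slc38a4, an amino acid transporter gene that is imprinted in the mouse, had 7.900 and 10.5 CPM in WT and 0.0974 and 0.148 in KO (log2 fold change -6.15) against 208 CPM in the ESC library. Trim6, a ubiquitin ligase gene, had 4.99 and 10.5 CPM in WT and 0.0974 and 0.0987 in KO (log2 fold change -6.21) and 178 CPM in the ESC library. These 5 genes were separated by more than the spread between letters in either genotype. A few genes had so few counts in KO that the ratio rests on counting. Pex5l had 1 count over both KO libraries, a ratio of KO to WT of 0.00422 (95% counting interval 0.000106 to 0.0237). Gpx7, a peroxidase gene of the endoplasmic reticulum, also had 1 count, a ratio of 0.00472 (0.000119 to 0.0266), and the actin regulator gene Wasf3 had 2, a ratio of 0.00515 (0.000622 to 0.0187). The remaining named genes were the kinase gene Camk2a (10.97 and 17.5 CPM in WT and 0.0487 and 0.247 in KO), the skin protease gene Asprv1 (11.5 and 8.41 CPM in WT and 0 and 0.247 in KO), the kallikrein gene Klk10 (9.18 and 14.5 CPM in WT and 0.0487 and 0.296 in KO) and the interferon-inducible gene Gbp1 (11.9 and 10.1 CPM in WT and 0.195 and 0.148 in KO). Klk10 and Gbp1 belong to families of similar genes, so their counts may be shared with relatives.

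**Figure D2:**
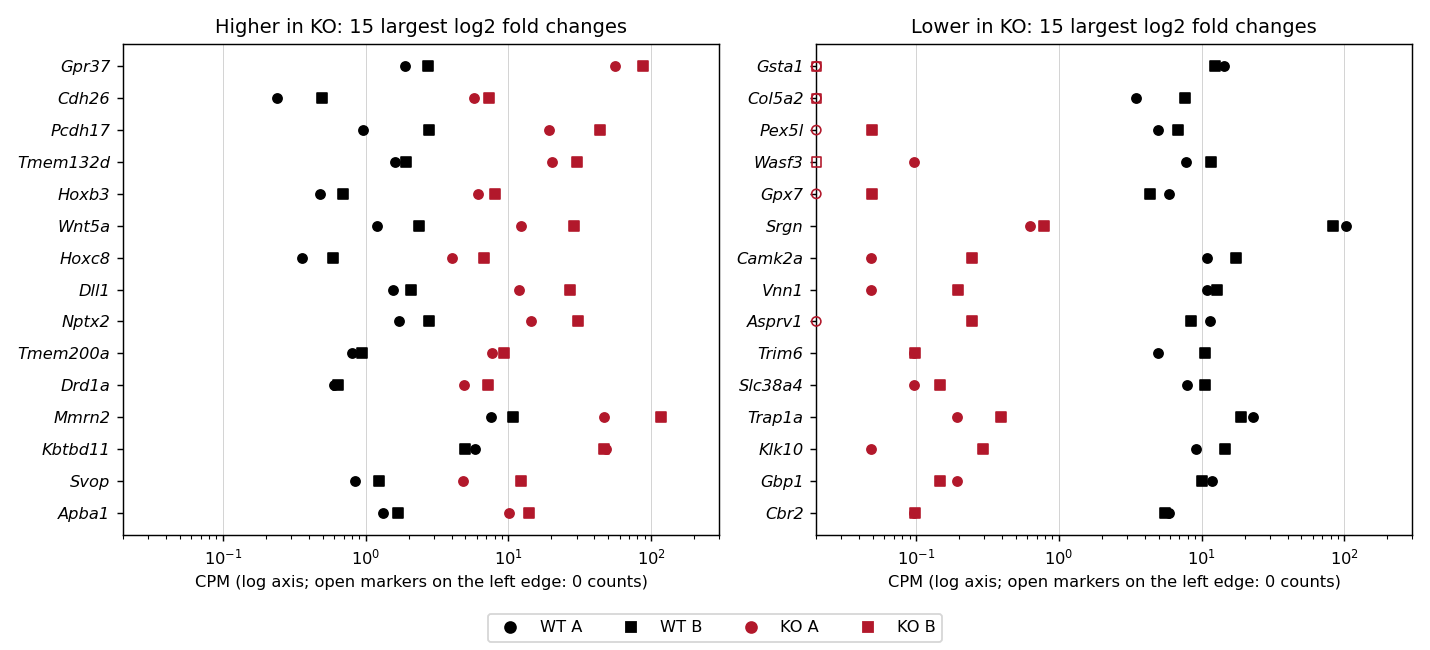
CPM on a log axis in the 4 day 0 libraries for the 15 genes with the largest log2 fold change in each direction, among called genes with at least 5 CPM in the higher group and, by the rule that chose them, no overlap between groups. Black points are WT and red points KO, circles replicate A and squares replicate B, and open markers at the left edge are libraries with 0 counts. The genes with a deficit all lie under 1 CPM in KO, while those with an excess have counts in all 4 libraries.

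Of the 4 reprogramming factors 0 were called by edgeR or DESeq2 and 0 had an unadjusted p under 0.05, while the naive and general pluripotency genes called without the replicate block were all lower in KO. Pou5f1 (Oct4) had 4139 and 7301 CPM in WT and 4119.8 and 8299 CPM in KO (log2 fold change 0.12, SE 0.526, FDR = 1). Sox2 had 233 and 470.4 CPM in WT and 208 and 449.6 in KO, Klf4 886 and 1976 CPM in WT and 977 and 2527 in KO, and Myc 767 and 1532 CPM in WT and 736 and 1794 in KO. All 4 were higher in B than in A in both genotypes, and the letters differed by more than the genotypes did. The gene totals cannot separate endogenous transcripts from transcripts of a reprogramming vector, which the labels used here do not describe.

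Of 19 tested naive pluripotency genes 7 were called lower and 0 higher, against 5.59% and 2.69% of all genes. Their median log2 fold change was -1.67 (-1.64 with the member at 0 counts set at its bound), against 0.0036 over all genes. Tcfcp2l1 (Tfcp2l1), a transcription factor gene of the naive network, had 20.5 and 31.9 CPM in WT and 1.51 and 2.71 in KO (log2 fold change -3.63, SE 0.371, FDR = 0.000751). Klf5 and Klf2, Krüppel-like factors of the same network, had 27.1 and 36.5 CPM in WT and 5.502 and 6.27 in KO (log2 fold change -2.43, SE 0.211, FDR = 0.0003501) and 9.097 and 9.65 CPM in WT and 1.75 and 1.63 in KO (log2 fold change -2.47, SE 0.1902, FDR = 0.000212). Both letters gave the same picture, with the KO libraries close together and far below WT. Dppa5a, an RNA-binding protein gene of ESCs, went from 14.2 and 9.400 to 0.536 and 0.247 CPM (log2 fold change -4.89, SE 0.608, FDR = 0.00168), with 3121 CPM in the ESC library. Nanog, a central naive factor, was low in both genotypes, at 2.91 and 1.34 CPM in WT and 0.7303 and 0.642 in KO (log2 fold change -1.64, SE 0.379, FDR = 0.03101), against 312 CPM in the ESC library. Zfp42 (Rex1) at 3.03 and 2.13 CPM in WT and 0.876 and 0.7403 in KO and Esrrb at 0.479 and 0.445 CPM in WT and 0.0487 and 0 in KO were not called (FDR = 0.1695 and 0.0699), but were called lower with the block in the 8 libraries (FDR = 0.000197 and 0.00205).

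Of 19 tested general pluripotency genes 7 were again called lower and 0 higher, against 5.59% and 2.69% of all genes, with a median of -0.81. The difference was largest for Tdgf1 (Cripto), a co-receptor gene for the ligand Nodal, among the members named here. It had 151 and 111 CPM in WT and 4.24 and 3.65 CPM in KO (log2 fold change -5.05, SE 0.335, FDR = 9.99e-05), with 1146 CPM in the ESC library. Gdf3, a ligand of the TGF-beta superfamily, had 5.47 and 7.27 CPM in WT and 1.07 and 1.58 in KO (log2 fold change -2.26, SE 0.398, FDR = 0.00933). The de novo DNA methyltransferase gene Dnmt3b had 25.7 and 30.03 CPM in WT and 8.47 and 8.59 in KO (log2 fold change -1.71, SE 0.208, FDR = 0.00156), and the zinc finger gene Zfp296 30.1 and 35.8 CPM in WT and 17.8 and 20.9 in KO (log2 fold change -0.77, SE 0.173, FDR = 0.0277). Among 18 tested genes of DNA methylation Dnmt3b was the 1 called lower, with 0 called higher. The block in the 8 libraries gave 2 of 17 lower and 1 higher, against 17.1% and 16.9% of all genes. With that block, 11 naive genes were called lower and 1 higher of 17 tested, and 15 general pluripotency genes were called lower and 0 higher of 19.

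The epithelial genes called without the replicate block were all lower in KO. Of all genes 5.59% were called lower and 2.69% higher, and 17.1% and 16.9% with the block in the 8 libraries. Of 24 tested epithelial and junction genes 8 were called lower and 0 higher, with a median log2 fold change of -1.20, and with the block in the 8 libraries 13 of 21 were lower and 0 higher. Epcam, an epithelial adhesion molecule, had 65.99 and 68.3 CPM in WT and 10.2 and 15.8 CPM in KO (log2 fold change -2.36, SE 0.312, FDR = 0.00219). The keratin genes Krt19 and Krt8 had 76.3 and 59.96 CPM in WT and 17.9 and 12.1 in KO (log2 fold change -2.18, SE 0.2302, FDR = 0.000826) and 7.22 and 7.08 CPM in WT and 0.633 and 0.444 in KO (log2 fold change -3.71, SE 0.405, FDR = 0.000955). Esrp1, which encodes a splicing factor of epithelial cells, had 28.2 and 33.9 CPM in WT and 10.1 and 13.1 in KO (log2 fold change -1.42, SE 0.189, FDR = 0.00228). Of 17 tested genes of stratified epithelium 6 were called lower and 0 higher, with a median of -2.40 (-1.97 with the 3 members at 0 counts set at their bounds). With the block in the 8 libraries 7 of 14 were lower and 2 higher. Sfn, the epithelial 14-3-3 protein gene, had 101 and 80.1 CPM in WT and 5.55 and 7.65 in KO (log2 fold change -3.78, SE 0.243, FDR = 9.99e-05), and Ly6d, a surface protein gene of keratinocytes, 21.5 and 10.7 CPM in WT and 2.29 and 1.88 in KO (log2 fold change -2.95, SE 0.448, FDR = 0.00461).

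Of 28 tested fibroblast and mesenchymal genes 5 were called lower and 2 higher, against 5.59% and 2.69% of all genes, with a median of -0.84 (-0.74 with 6 members at their bounds). The replicate block in the 8 libraries gave 14 of 25 lower and 3 higher, against 17.1% and 16.9% of all genes. The 3 were the collagen gene Col5a1 and the transcription factor genes Zeb1 and Zeb2, which went the other way from the genes named next. Thy1, a surface marker of fibroblasts, had 2.75 and 2.77 CPM in WT and 0 counts in both KO libraries, at least 37.5-fold lower (FDR = 0.000863). The collagen genes Col5a2 and Col1a2, also at 0 in KO, had 3.47 and 7.67 CPM and 1.88 and 3.71 CPM in WT in turn, at least 72.7-fold and 36.6-fold lower (FDR = 0.00504 and 0.0103). Snai1, a transcription factor gene of the epithelial to mesenchymal transition, had 2.31 and 3.56 CPM in WT and 0.7303 and 0.839 in KO (log2 fold change -1.89, SE 0.337, FDR = 0.00971). In the ESC library Col1a2 stood at 119 CPM and Thy1 at 14.3. Of 8 defining fibroblast markers, Thy1, Col1a2, Col3a1 and Pdgfrb were at 0 counts in both KO libraries and all 8 had counts in both WT libraries. Their summed level was 10.6 to 18.2 CPM in WT and 3.17 to 5.23 in KO, and the summed level of all 31 genes of the list was 2612 to 4552 CPM in WT and 2057 to 4061 in KO. The part of a few fibroblasts or of another cell in these differences was not tested. Of 31 tested collagen genes 6 were called lower and 0 higher (median -0.74), and 12 of 25 lower and 2 higher with the block in the 8 libraries. The 6 included the cartilage collagen genes Col2a1 (3.31 and 8.46 CPM in WT and 0.0974 and 0.296 in KO, log2 fold change -4.86) and Col9a2 (1.88 and 3.71 CPM in WT, 1 count over both KO libraries).

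**Figure D3:**
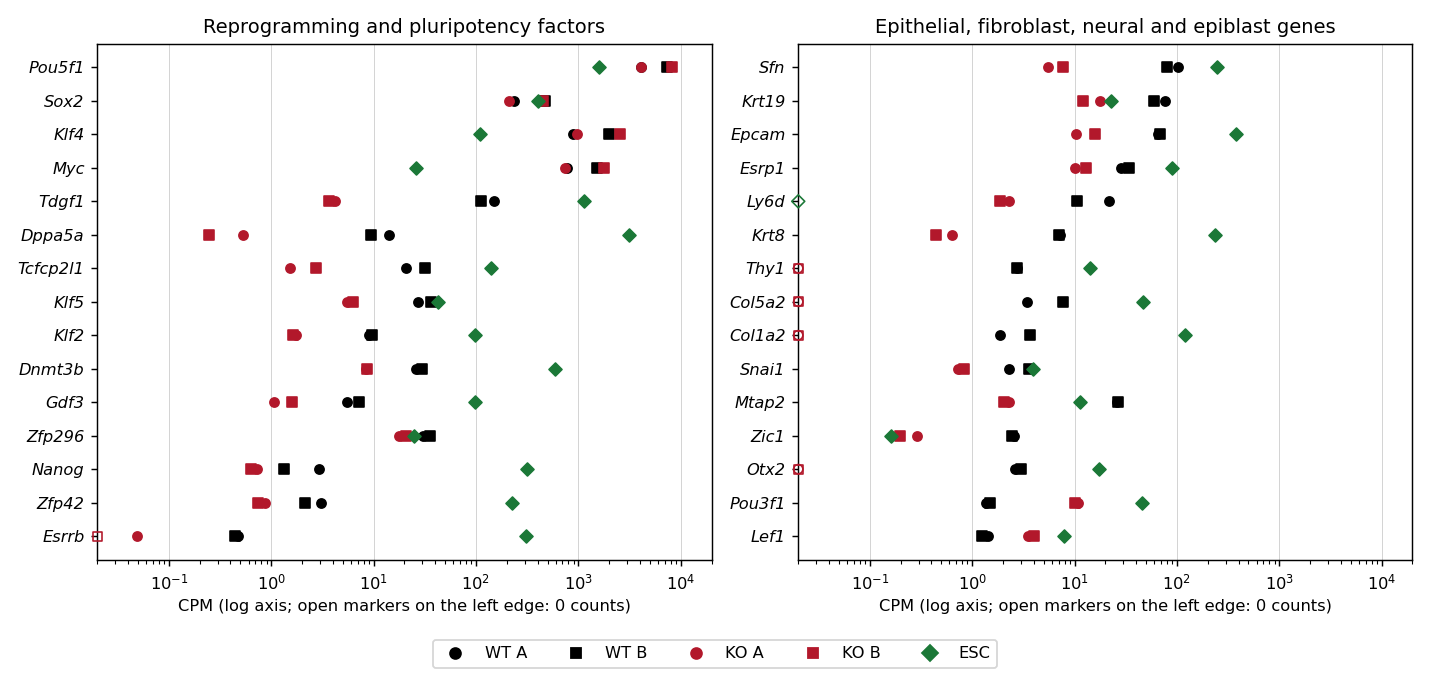
CPM on a log axis of pluripotency factors (left) and of epithelial, fibroblast, neural and epiblast genes (right) in the 4 day 0 libraries and the single ESC library (green diamonds). The reprogramming factors Pou5f1, Sox2, Klf4 and Myc overlap between WT (black) and KO (red), while Tdgf1, Dppa5a, Tcfcp2l1, Klf5, Klf2 and the epithelial genes are lower in both KO libraries.

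Markers of other cell types were called in both directions. The shares of all genes were 5.59% lower and 2.69% higher, and 17.1% and 16.9% with the block in the 8 libraries. Of 17 tested neural genes 2 were called lower and 0 higher, while with the replicate block in the 8 libraries 5 of 14 were lower and 4 higher. The 2 were the microtubule gene Mtap2 (Map2), at 26.3 and 26.6 CPM in WT and 2.29 and 2.02 in KO (log2 fold change -3.61, SE 0.202, FDR = 7.69e-05), and Zic1, a neural transcription factor gene, at 2.55 and 2.42 CPM in WT and 0.292 and 0.197 in KO (log2 fold change -3.31). Of 12 trophectoderm genes 4 were called lower and 0 higher, among them Eomes (3.47 and 3.91 CPM in WT and 0.682 and 0.888 in KO) and Gata2 (2.27 and 3.27 CPM in WT and 0.779 and 0.7897 in KO), transcription factors of the placental lineage. Genes of the primed epiblast were split, with 4 lower and 2 higher of 8 tested. Otx2, a regulator of the exit from the naive state, had 2.63 and 2.97 CPM in WT and 0 counts in KO, at least 37.8-fold lower (FDR = 0.000631). Pou3f1 (Oct6), which acts in the same transition, had 1.36 and 1.48 CPM in WT and 10.8 and 10.2 in KO (log2 fold change 2.88, SE 0.299, FDR = 0.000796). The pair thus differed in opposite directions. Of 12 primitive endoderm genes 2 were called higher and 1 lower. With the block in the 8 libraries 3 of 8 were higher and 2 lower. The higher ones without it included Dab2, an endocytic adaptor gene, at 0.638 and 0.9895 CPM in WT and 2.19 and 2.67 in KO (log2 fold change 1.58), and the lower one was Srgn, described above, which other cell types express too. The endothelial list had 2 higher and 3 lower of 10, and 2 and 4 of 8 with the block. Tek (Tie2), an angiopoietin receptor gene, was at 29.6 and 35.03 CPM in WT and 61.98 and 92.00 in KO (log2 fold change 1.25, SE 0.319, FDR = 0.0457), while the adhesion gene Esam was at 4.03 and 5.096 CPM in WT and 0.0974 and 0.197 in KO (log2 fold change -4.89, SE 0.546, FDR = 0.00101) and Sox18, a vascular transcription factor gene, at 4.95 and 5.69 CPM in WT and 0.633 and 0.494 in KO (log2 fold change -3.22). Of 5 tested immune genes 0 were called by edgeR or DESeq2 and 0 had an unadjusted p under 0.05, and the defining immune markers Ptprc, Csf1r and Tyrobp summed to at most 0.247 CPM in any of the 4 libraries.

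Among the 39 lists, the homeobox genes of the Hox clusters had the most members called higher in KO without the replicate block. That is a count and not a share, and smaller lists reached 4 of 17 (Wnt targets) and 2 of 8 (primed epiblast). With the block in the 8 libraries, the ATF4 and cholesterol lists given below had more, 19 of 24 and 17 of 21. Of 31 tested 7 were called higher and 2 lower, with a median of 0.28, and with the replicate block in the 8 libraries 12 were higher and 2 lower of 29. Hoxb3 had 0.479 and 0.693 CPM in WT and 6.13 and 8.09 in KO (log2 fold change 3.60, SE 0.395, FDR = 0.0009604). The neighbours Hoxc8 and Hoxc9 had 0.359 and 0.594 CPM in WT and 3.99 and 6.76 in KO (log2 fold change 3.497, SE 0.4305, FDR = 0.00162) and 0.638 and 0.594 CPM in WT and 3.85 and 3.800 in KO (log2 fold change 2.62, SE 0.369, FDR = 0.00311). Hoxc13, from one end of that cluster, had 0.1197 and 0.198 CPM in WT and 2.24 and 2.22 in KO (log2 fold change 3.79, SE 0.414, FDR = 0.000957). These genes were near the limit of detection in WT and at a few CPM in KO, in both letters. Of 25 tested forkhead genes 4 were called lower and 1 higher (median -0.16), and with the block in the 8 libraries 7 of 22 were lower and 3 higher. Among all genes 5.59% were called lower and 2.69% higher, and 17.1% and 16.9% with that block. Foxi3, a regulator of ectodermal development, had 13.7 and 15.4 CPM in WT and 1.51 and 1.97 in KO (log2 fold change -3.06, SE 0.233, FDR = 0.000206), and Foxh1, a partner of SMAD proteins in Nodal signalling, 4.67 and 3.31 CPM in WT and 0.974 and 0.938 in KO (log2 fold change -2.06, SE 0.274, FDR = 0.00231).

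Signalling genes were called in several pathways. Over all genes 2.69% were called higher and 5.59% lower, and 16.9% and 17.1% with the block in the 8 libraries. In the TGF-beta and BMP list 3 of 23 were called lower and 1 higher (median -0.63), and 18 of 23 were lower in both letters, against 37.9% of all genes. With the block in the 8 libraries 12 were lower and 4 higher. The ligand gene Nodal had 1.96 and 3.81 CPM in WT and 0.438 and 0.0494 in KO (log2 fold change -3.51, SE 0.899, FDR = 0.0461), so that Nodal, its co-receptor gene Tdgf1, Gdf3 and Foxh1 were all lower. Id3, a target of BMP signalling, had 159 and 117 CPM in WT and 49.1 and 34.5 in KO (log2 fold change -1.72, SE 0.276, FDR = 0.00589). The ligand gene Tgfb2 went the other way, at 11.01 and 14.3 CPM in WT and 36.5 and 87.8 in KO (log2 fold change 2.29, SE 0.538, FDR = 0.0328). Of 17 Wnt targets 4 were called higher and 0 lower, with a median of 0, but with the block in the 8 libraries 4 of 16 were higher and 3 lower. The 3 were Axin2, Notum and Wif1. Notum, not called without the block (FDR = 0.0738), had 31.6 and 47.6 CPM in WT and 9.01 and 18.2 in KO (log2 fold change -1.54, SE 0.446). Lef1, a transcription factor gene of the pathway, had 1.44 and 1.24 CPM in WT and 3.51 and 3.998 in KO (log2 fold change 1.48, SE 0.2401, FDR = 0.00614), and the receptor gene Tnfrsf19 (Troy) 0.319 and 0.643 CPM in WT and 1.95 and 2.22 in KO (log2 fold change 2.13, SE 0.477, FDR = 0.0268). Of 15 genes of LIF and STAT3 signalling 3 were called lower and 0 higher (median -0.39): Klf5, given above, the homeobox gene Gbx2 (6.18 and 6.09 CPM in WT and 2.24 and 1.43 in KO, log2 fold change -1.74) and the AP-1 gene Junb (129.6 and 153 CPM in WT and 80.3 and 91.8 in KO, log2 fold change -0.71). With the replicate block in the 8 libraries 8 of these 15 were called lower and 2 higher. Of 16 FGF pathway genes 1 was called higher, the ligand gene Fgf1, at 1.64 and 1.29 CPM in WT and 8.13 and 10.2 in KO (log2 fold change 2.64, SE 0.322, FDR = 0.00156). With the block 4 of 12 were higher and 2 lower. Of 21 ERK targets 1 was called higher and 1 lower (4 and 5 with the block), the latter being the phosphatase gene Dusp5 (10.9 and 10.9 CPM in WT and 4.67 and 3.75 in KO). The ERK counts lay near the shares of all genes, so they are not read as a trait of that pathway.

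Imprinted genes, which are expressed from 1 parental copy, were called in both directions. Of 27 tested 3 were lower and 1 higher, with a median of -0.003, and with the block in the 8 libraries 6 of 25 were lower and 5 higher. The shares of all genes were 5.59% lower and 2.69% higher, and 17.1% and 16.9% with that block. Peg10, a retrotransposon-derived gene needed in the placenta, had 552 and 744 CPM in WT and 13.7 and 19.9 CPM in KO (log2 fold change -5.27, SE 0.325, FDR = 9.99e-05), and 346 CPM in the ESC library. Mest had 22.9 and 19.99 CPM in WT and 5.21 and 4.64 in KO (log2 fold change -2.12, SE 0.1801, FDR = 0.000322), and the zinc finger gene Plagl1 2.23 and 4.502 CPM in WT and 0.0974 and 0.197 in KO (log2 fold change -4.45, SE 0.666, FDR = 0.00425). The growth factor gene Igf2 was the 1 higher member, at 5.67 and 6.38 CPM in WT and 10.3 and 13.1 in KO (log2 fold change 0.96, SE 0.231, FDR = 0.0367). Of 22 tested germline genes 1 was called higher and 0 lower, and 9 of the 22 had 0 counts in all 4 libraries. Of 13 tested genes of the Polycomb complex PRC2 1 was higher, Phf19, a subunit that binds methylated histone H3 (18.95 and 19.8 CPM in WT and 38.3 and 44.5 in KO, log2 fold change 1.095, SE 0.186, FDR = 0.00768), and 1 lower, the cofactor gene Jarid2 (248 and 311 CPM in WT and 143 and 159.8 in KO, log2 fold change -0.88, SE 0.188, FDR = 0.0215). Of 24 cell cycle genes the cyclin gene Ccne1 was the 1 called, lower in KO at 93.1 and 75.1 CPM in WT and 54.4 and 40.03 in KO (log2 fold change -0.83, SE 0.199, FDR = 0.0353), and 7 were called lower and 0 higher with the replicate block in the 8 libraries.

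The interferon response genes and glutathione transferases called without the replicate block were lower in KO. Of 28 tested interferon genes 7 were lower and 0 higher, with a median of -0.48, and 7 of 19 were lower and 0 higher with the block in the 8 libraries. Xaf1, a proapoptotic gene, had 34.4 and 31.5 CPM in WT and 11.6 and 9.67 in KO (log2 fold change -1.63, SE 0.179, FDR = 0.000964). Oas1a and Oas2, which encode sensors of double-stranded RNA and have close relatives, had 28.9 and 21.7 CPM in WT and 8.62 and 5.13 in KO (log2 fold change -1.88, SE 0.304, FDR = 0.00614) and 6.304 and 13.2 CPM in WT and 0.3895 and 1.43 in KO (log2 fold change -3.41, SE 0.608, FDR = 0.0129). The poly(ADP-ribose) polymerase gene Parp14 had 6.58 and 8.91 CPM in WT and 2.19 and 3.11 in KO (log2 fold change -1.54, SE 0.2699, FDR = 0.00896). Of 23 tested glutathione transferases, enzymes that conjugate electrophiles, 6 were lower and 0 higher (median -0.30). Besides Gsta1, these included Mgst3 (80.1 and 52.6 CPM in WT and 18.1 and 17.4 in KO, log2 fold change -1.90, SE 0.222, FDR = 0.00127), Gsta3 (35.2 and 19.9 CPM in WT and 5.79 and 3.36 in KO, log2 fold change -2.59, SE 0.4501, FDR = 0.00867) and Mgst2 (2.99 and 3.02 CPM in WT and 0.633 and 0.543 in KO, log2 fold change -2.34, SE 0.555, FDR = 0.0347). With the replicate block in the 8 libraries 10 transferases were lower and 5 higher of 21 tested. The 5 were Gstm5, Gstt1, Gstt3, Gstz1 and Mgst1. For comparison with both lists, 5.59% of all genes were called lower and 2.69% higher, and 17.1% and 16.9% with that block.

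The genes of the ATF4 stress response called without the replicate block were all higher in KO. ATF4 is a transcription factor that is translated when amino acids are short or the endoplasmic reticulum is stressed, and it raises amino acid synthesis and transport. Of 24 tested genes of this response 3 were called higher and 0 lower, against 2.69% and 5.59% of all genes. Their median log2 fold change was 0.87, and 22 of the 24 had a positive sign. Within letters, 20 of 24 were higher in both A and B, against 36.7% of all genes, and 1 was lower in both. Chac1, which encodes a glutathione-degrading enzyme, had 1.197 and 1.29 CPM in WT and 10.2 and 7.65 in KO (log2 fold change 2.84, SE 0.3501, FDR = 0.00162). Vldlr, a lipoprotein receptor gene, had 2.87 and 3.66 CPM in WT and 16.1 and 29.6 in KO (log2 fold change 2.81, SE 0.443, FDR = 0.00558), and Aldh18a1, an enzyme of proline synthesis, 53.5 and 57.2 CPM in WT and 96.6 and 104 in KO (log2 fold change 0.86, SE 0.138, FDR = 0.00591). Each of these had the KO libraries above the WT libraries and letters that lay close together within WT. Trib3, an inhibitor of ATF4, just missed the threshold at 6.903 and 7.08 CPM in WT and 11.4 and 11.01 in KO (log2 fold change 0.68, SE 0.183, FDR = 0.0559). Asns, asparagine synthetase, and Slc7a11, the cystine transporter gene, were named for their promoters after their values were seen. They had 135 and 82.8 CPM in WT and 263 and 141 in KO (FDR = 0.264) and 145 and 168 CPM in WT and 302 and 481 in KO (FDR = 0.0612). Within letters Asns differed by 0.96 in A and 0.77 in B, and Slc7a11 by 1.06 and 1.52. With the replicate block in the 8 libraries, 19 of the 24 genes were called higher and 1 lower, against 16.9% and 17.1% of all genes in that fit. Trib3, Asns and Slc7a11 were among the 19.

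The promoters of these genes were searched for TGATGNAA on both strands, the core letters of the CCAAT enhancer binding protein and ATF response element (CARE) to which ATF4 binds. In the 250 bases before the RefSeq start (build GRCm38.p6), 5 of the 22 list members with a promoter sequence held it (22.7%), against 231 of 11457 genes tested (2.02%). The holders were Atf3, Chac1, Asns, Slc7a11 and Nupr1. The promoters of Chac1 (chr2:119350992-119351241, plus strand), Asns (chr6:7693210-7693459, minus strand) and Slc7a11 (chr3:50443614-50443863, minus strand) are shown 5′ to 3′ along the gene, with the matching letters of either strand in capitals, Chac1 as the 1 holder that was called, and Asns and Slc7a11 as the 2 holders with the highest mean CPM in KO. A match describes letters and not a bound site. The list names genes of the ATF4 response, so a share above that of all genes can come from the choice of its members. It holds no information on KO against WT.
Chac1: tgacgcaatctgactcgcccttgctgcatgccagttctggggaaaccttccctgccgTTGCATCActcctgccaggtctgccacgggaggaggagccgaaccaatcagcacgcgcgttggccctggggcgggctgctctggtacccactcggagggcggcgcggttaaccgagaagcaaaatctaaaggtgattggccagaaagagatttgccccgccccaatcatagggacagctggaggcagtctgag
Asns: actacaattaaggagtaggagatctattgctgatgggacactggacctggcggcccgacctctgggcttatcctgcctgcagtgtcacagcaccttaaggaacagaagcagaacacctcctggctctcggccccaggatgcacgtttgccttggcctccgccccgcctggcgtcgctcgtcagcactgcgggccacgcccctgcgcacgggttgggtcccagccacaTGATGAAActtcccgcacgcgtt
Slc7a11: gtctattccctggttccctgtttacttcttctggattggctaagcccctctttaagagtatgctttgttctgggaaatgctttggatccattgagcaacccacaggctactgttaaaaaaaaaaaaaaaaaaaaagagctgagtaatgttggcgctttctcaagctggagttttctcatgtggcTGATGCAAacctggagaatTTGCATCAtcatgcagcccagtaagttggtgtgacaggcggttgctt
The match starts 193 bases upstream in Chac1, 23 in Asns, and 66 and 47 in Slc7a11, which holds it on both strands.

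The called genes of cholesterol synthesis were higher in KO too. Of 21 tested 4 were called higher and 0 lower, against 2.69% and 5.59% of all genes, with a median log2 fold change of 0.58. All 21 had a positive sign, against 7212 of the 14324 genes tested. Within letters 20 were higher in both A and B, against 36.7% of all genes. Insig1, which encodes a sterol-regulated brake of the pathway, had 81.8 and 74.6 CPM in WT and 201 and 195 in KO (log2 fold change 1.34, SE 0.149, FDR = 0.00101). Cyp51, lanosterol demethylase, had 73.97 and 76.7 CPM in WT and 172 and 254 in KO (log2 fold change 1.501, SE 0.289, FDR = 0.0137). The squalene synthase gene Fdft1 stood at 79.04 and 56.2 CPM in WT and 125 and 116 in KO (log2 fold change 0.84, SE 0.1802, FDR = 0.0227), and the sterol oxidase gene Sc4mol (Msmo1) at 34.4 and 32.7 CPM in WT and 70.5 and 103 in KO (log2 fold change 1.37, SE 0.333, FDR = 0.0379). In all of these the KO libraries were above both WT libraries. With the replicate block in the 8 libraries 17 of 21 were called higher and 0 lower, against 16.9% and 17.1% of all genes.

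**Figure D4:**
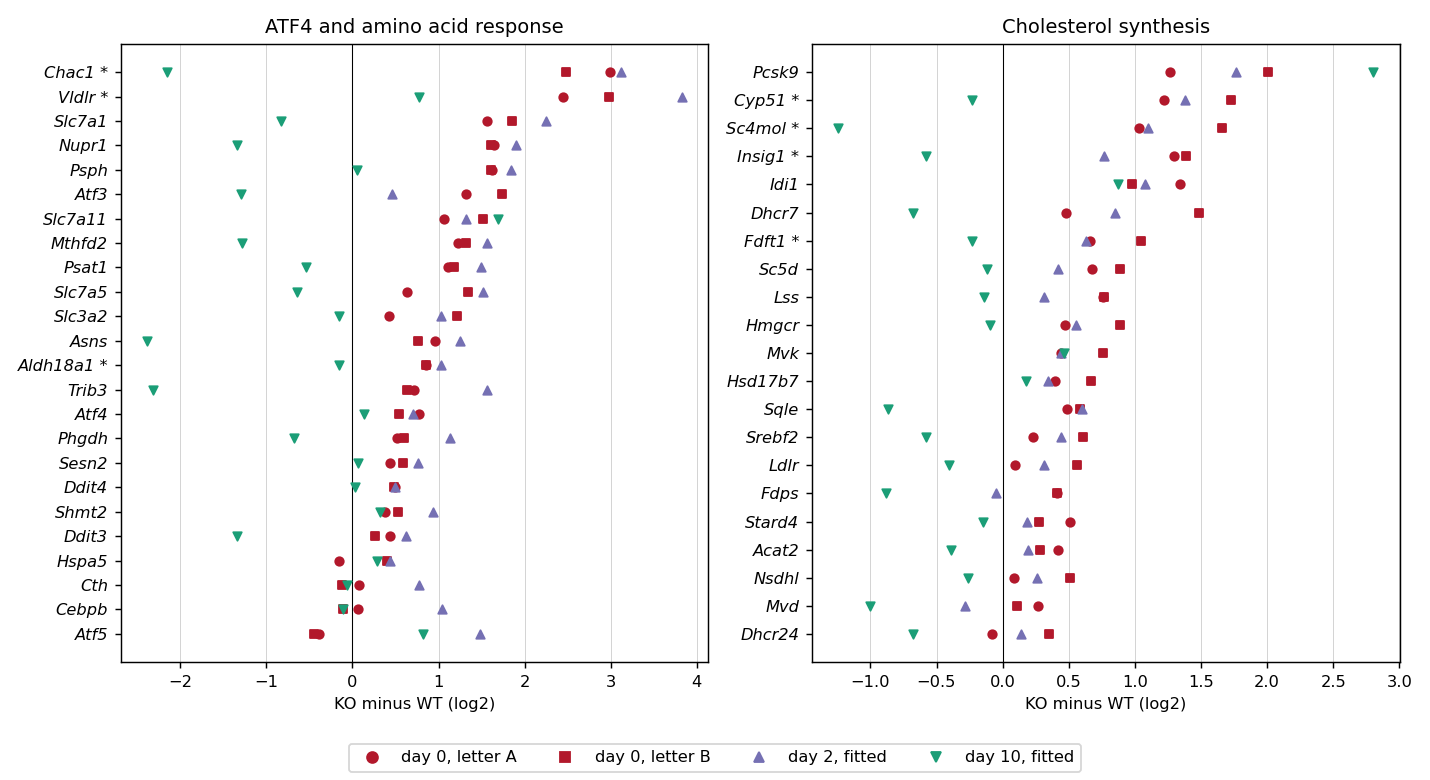
KO minus WT on a log2 scale for each tested member of the ATF4 list (left) and of the cholesterol list (right). Red circles and squares are the day 0 differences within letters A and B, triangles the fitted log2 fold changes at day 2 (pointing up) and day 10 (pointing down), and an asterisk marks a call at day 0. Most day 0 points lie to the right of 0 in both letters, 20 of 24 and 20 of 21 genes in both.

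**Figure D5:**
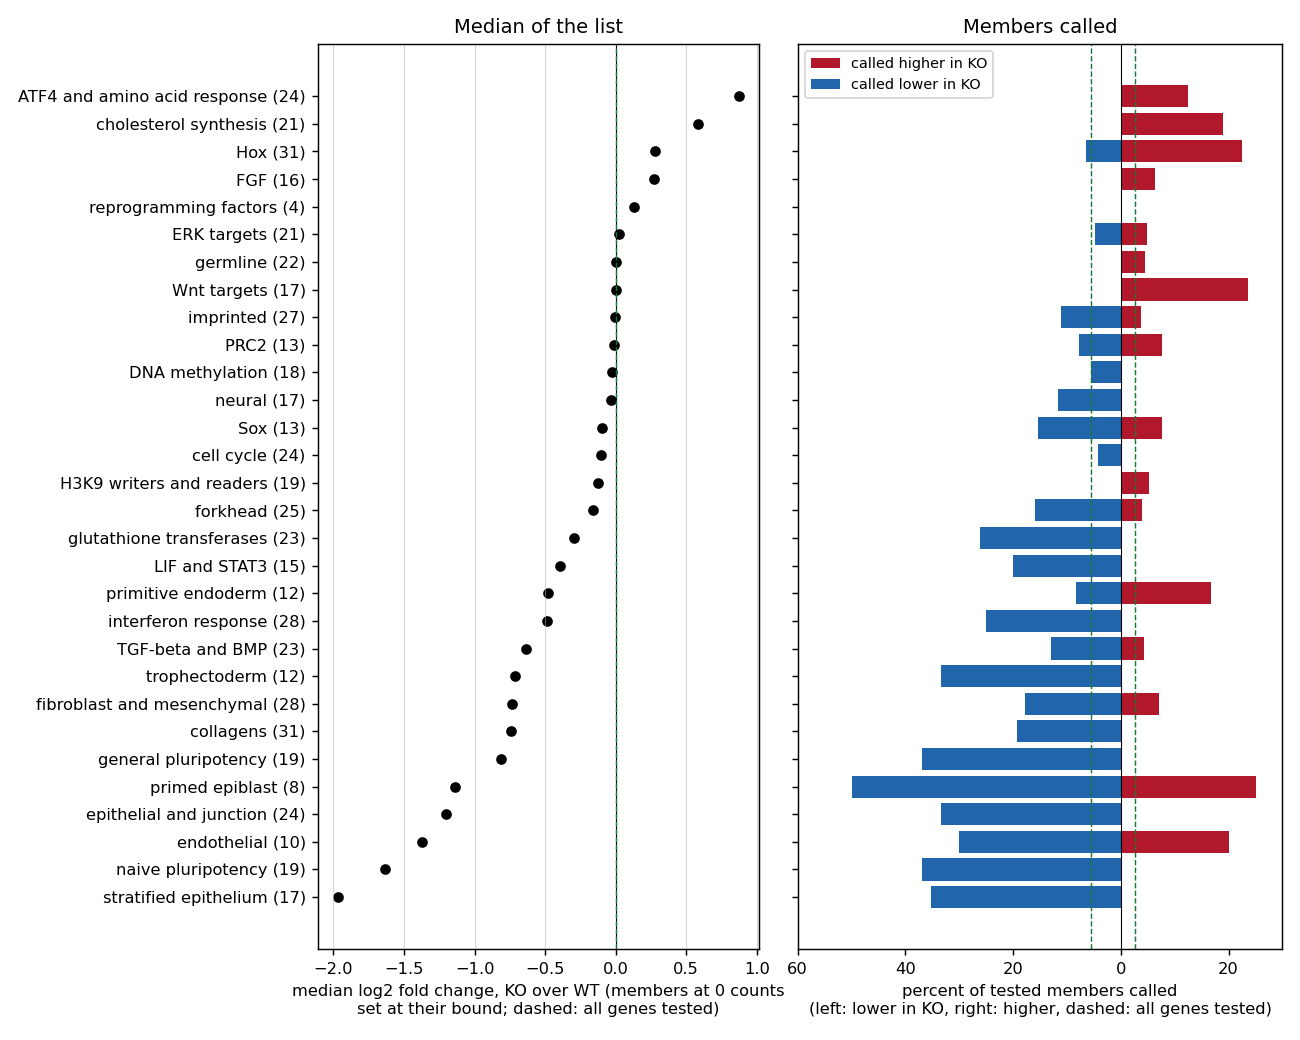
Median log2 fold change, with genes at 0 counts in 1 group at their bound (left), and percent of tested members called (right) for 30 of the 39 gene lists at day 0, with the number tested in parentheses and all genes tested as dashed lines. The ATF4 and cholesterol lists have the highest medians and the stratified epithelium and naive pluripotency lists the lowest.

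The genes called at day 0 were followed in the treated libraries. These libraries entered the same fit and its estimate of the spread, which the day 0 calls rest on, so the counts that follow are a description and not independent support. At day 2, 10.5% of all genes were called between KO and WT, 4.29% higher and 6.16% lower. Of the 386 genes higher at day 0, 236 (61.1%) were called higher again at day 2 and 6 were called lower. Of the 801 lower at day 0, 490 (61.2%) were called lower again and 4 higher. A difference of the KO effect between day 2 and day 0 was called for 28 of all genes (0.195%), with a positive difference in 0.126% and a negative one in 0.0698%, among them 3 of the 386 and 18 of the 801. That difference holds the day 0 values by which these genes were chosen, so nothing is read from their share here or at day 10. Peg10 was one, with a log2 fold change of -5.27 at day 0 and -2.25 at day 2, and Igf2 another, at 0.96 and -2.47. Tdgf1, at -5.05 and -3.15, was called lower at both days.

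At day 10, 32.3% of all genes were called between KO and WT, 12.4% higher and 19.9% lower. Of the 386, 162 (42.0%) were called higher again and 84 lower. Of the 801, 431 (53.8%) were called lower again and 93 higher. The KO effect differed from that at day 0 for 170 of the 386 and 322 of the 801, against 12.6% of all genes (6.35% positive, 6.2% negative), and it was shifted against its day 0 direction in 140 and 308 of them. Slc38a4 and Trim6 were among the genes called lower at every day, at -6.08 and -5.01. Chac1 was called in opposite directions, at 3.11 at day 2 and -2.15 at day 10, and Trib3 likewise, at 1.57 and -2.31. Cbr2 was at -5.49 at day 2 and, without a call, at 0.19 at day 10 (FDR = 0.616). Hoxb3 was called higher at both later days, at 3.96 and 3.60.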

How the data were processed

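Total RNA of mouse pre-iPSCs was sequenced single-end after TruSeq RNA library preparation, per the labels' protocols. The submitters' processing notes name Bowtie2, RSEM and the build mm9, without versions. The deposited files give RSEM expected counts per gene, which were used, and TPM values, which the authors' files hold and which entered no result. Of the day 0 values 39.1% to 43.1% per library were not whole (tolerance 0.005), and the expected counts were rounded. Strand is not given in the sources used here, so reads of overlapping genes cannot be told apart, and genes with close copies are uncertain.

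All 12 pre-iPSC libraries in 6 groups entered 1 fit in edgeR 4.0.16 (R 4.3.3) with TMM factors, filterByExpr (14324 genes) and the quasi-likelihood test, Benjamini-Hochberg adjusted over all genes tested. The ESC library, with 1 replicate, was left out. The common coefficient of biological variation was 0.266, with 6 residual degrees of freedom. CPM used the TMM-scaled library size. Within-letter differences used log2 CPM with a prior count of 2, scaled to each library. Groups at 0 counts gave a bound from a floor of 3 counts over the group, and groups with 1 to 3 counts an exact binomial 95% interval of the ratio. Both cover counting error only. The 4 totals of 19261268 to 26430050 set that precision. DESeq2 1.42.0, other scaling, other filters, other sets of libraries and left-out replicates were alternatives.

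The letters' meaning is not stated in the labels. The A minus B difference across genes correlated at 0.754 between WT and KO at day 0 (82.7% of genes with the same sign), and at 0.741 or more between all groups of days 0 and 2. With day 10 groups the correlation lay between -0.061 and 0.0492. A was higher than B in short transcripts (median 0.35 in WT, 0.27 in KO, log2) and lower in long ones (-0.38 and -0.39). Fits with the letter as a replicate block are therefore given beside the fit without it.

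The rule for named genes took Kdm3b, then in each direction the 15 called genes that changed most, provided that the higher group averaged 5 CPM or more, that the groups did not overlap, that both letters moved alike and that the transcript had a gene name. From every list it added the members of lowest FDR, no more than 4, whose average over the 4 libraries reached 1 CPM, and every measured reprogramming, KDM3 family and sex-linked gene. Genes outside the rule were chosen after their values were seen, namely defining markers of cell types (among them Nanog, Esrrb, Zfp42, Pdgfrb, Col3a1, Ptprc, Csf1r and Tyrobp), the other promoter motif holders (Asns, Slc7a11, Atf3, Nupr1) and Rangrf. Col5a1, Zeb1, Zeb2, Axin2, Wif1, Gstm5, Gstt1, Gstt3, Gstz1 and Mgst1 were also outside it, and the sections below do not follow them. The comparison, the members and the 39 lists (788 of 797 entries found in the files) were chosen with earlier results of these data known. Promoters came from RefSeq tables of build GRCm38.p6, matched by symbol, transcript accession or synonym.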

Additional observations from a re-analysis of the deposited data

Results flagged for a closer look

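Of the genes named, the difference between KO and WT itself differed between days for those given here, by the test of the difference in the same edgeR fit (FDR under 0.05). Values are the log2 fold change of KO over WT at the later day minus that at day 0. They hold the day 0 values by which most of these genes were chosen. A shift toward 0 is thus partly built in and is not read as a reversal. At day 2 the value was positive for Pex5l at 8.52, Trap1a at 3.96, Mtap2 at 2.54 and Peg10 at 3.02, all lower in KO at day 0, and negative for Gata2 at -3.24 and Igf2 at -3.43, of which Gata2 was lower and Igf2 higher in KO at day 0.

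At day 10 the value was positive, toward or past 0, for many genes that were lower in KO at day 0. Among pluripotency and signalling genes these were Klf2 at 1.18, Klf5 at 1.17, Tcfcp2l1 at 2.46, Tdgf1 at 2.05, Gbx2 at 2.04, Junb at 1.17, Id3 at 3.09 and Foxh1 at 1.49. Notum, which was not called at day 0, was at 2.47. Among epithelial, fibroblast and lineage genes these were Esrp1 at 1.92, Sfn at 2.17, Ly6d at 4.87, Thy1 at 6.19, Mtap2 at 3.48, Zic1 at 5.16, Otx2 at 5.42, Foxi3 at 4.57, Sox18 at 4.67 and Esam at 3.96. Among metabolic and detoxifying genes these were Gsta1 at 8.003, Gsta3 at 2.39, Mgst3 at 1.34, Cbr2 at 5.97 and Vnn1 at 4.61. The others were Pex5l at 10.19, Srgn at 2.997, Camk2a at 4.53, Asprv1 at 5.23, Trap1a at 2.60, Peg10 at 6.16, Mest at 1.15 and Jarid2 at 0.96. The value was negative for Parp14 at -1.501, which was called lower in KO at day 0, and for Zfp42 at -3.30, which was not called at day 0 (log2 fold change -1.67).

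Of the genes described in the text and higher in KO at day 0, those that passed this test at day 10 had a negative value. ATF4 and cholesterol genes were at these values: Chac1 at -4.996, Trib3 at -2.99, Asns at -3.27, Aldh18a1 at -1.02, Insig1 at -1.92, Cyp51 at -1.74, Fdft1 at -1.07 and Sc4mol at -2.61. Outside these lists, the genes were Gpr37 at -1.91, Nptx2 at -7.11, Kbtbd11 at -2.76, Dab2 at -3.49, Pou3f1 at -3.49, Igf2 at -3.05, Tnfrsf19 at -4.46, Hoxc13 at -7.06, Sox21 at -1.68 and Brdt at -2.23. Trib3 and Asns were not called at day 0. The negative values are not general, since the rule also took genes described nowhere else here that had a positive value at day 10. Examples are Sox1 at 3.14 and Etv4 at 4.13, both with a positive log2 fold change at day 0 (0.52 and 0.39) but no call. The values of Gsta1, Thy1 and Otx2, at 0 counts in KO at day 0, and of Pex5l, at 1 count, depend on the prior count of the fit.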

How the results depend on the processing

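The 1187 calls (386 higher, 801 lower) were 1188 with RLE factors, 1767 with DESeq2 (666 higher, 1101 lower) and 1074 with no filter on low counts. With the replicate block they were 1792 in 12 libraries (707 higher, 1085 lower), 4512 in the 8 libraries of days 0 and 2 (2239 and 2273) and 4083 in the 4 day 0 libraries. They were 633 in the 8 libraries without the block and 141 with only the 4 day 0 libraries (19 higher, 122 lower), where fewer residual degrees of freedom are left. Leaving out 1 library gave 547 to 636, the lone sample being assumed to vary like the other groups. The share called higher was 32.5%, and 49.6% and 53.4% with the block in 8 and 4 libraries, 13.5% with only the 4 day 0 libraries, 16.0% without WT A, 22.9% without WT B and 22.2% without KO B. Kdm3b kept its call except with only the 4 day 0 libraries (-1.96) and without WT B (-1.71) or without KO A (-1.71), over a range of -2.32 to -1.71 with 1 library left out. Of 102 genes that the rule names and that were called, RLE, DESeq2 and the 3 block fits kept all. The calls lost were 4 with no filter, 65 with only the 4 day 0 libraries, 24 in the 8 libraries, 29 without WT A, 34 without WT B, 25 without KO A and 33 without KO B, and 0 changed sign. Among uncalled genes, those that changed sign with 1 library left out were Jmjd1c (-0.32 to 0.23), Pou5f1 (-0.52 to 0.62), Sox2 (-0.80 to 0.54), Klf4 (-0.60 to 1.02), Myc (-0.69 to 0.76) and Rangrf (-10.13 to 10.43). Of 78 list counts (2 per list), 51 moved by over 1.5 times with the block in 8 libraries, 25 with DESeq2 and 0 with RLE factors. Genes at a few counts in 1 group give a fold only as a bound or a counting interval.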

Other observations

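Of 28 tested genes of hypoxia and glycolysis 1 was called higher, the collagen prolyl hydroxylase gene P4ha2, at 6.105 and 8.51 CPM in WT A and B and 18.8 and 41.9 in KO A and B (log2 fold change 2.06, SE 0.5197, FDR = 0.0439), and 0 lower. Of 15 genes of MHC class I and its peptide pathway 1 was called lower, the immunoproteasome gene Psmb8, at 2.59 and 1.63 CPM in WT A and B and 0.0487 and 0.395 in KO A and B (log2 fold change -3.23, SE 0.623, FDR = 0.0139). Of 13 Sox genes 1 was called higher, Sox21, at 0.519 and 0.841 CPM in WT A and B and 3.21 and 4.74 in KO A and B (log2 fold change 2.55), and 2 lower, the vascular Sox18 and Sox15, the latter at 7.54 and 4.95 CPM in WT A and B and 2.29 and 1.28 in KO A and B (log2 fold change -1.80). With the replicate block in the 8 libraries of days 0 and 2, where 34.0% of all genes were called, 9 hypoxia and glycolysis genes were higher and 5 lower of 28, 3 MHC class I genes higher and 3 lower of 14, 4 Sox genes higher and 4 lower of 11, and 7 genes of CDK inhibition and p53 higher and 4 lower of 20. Of 9 muscle genes 1 was called lower and 0 higher. Without the block 5.59% of all genes were called lower and 2.69% higher. Of 20 genes of CDK inhibition and the p53 response 0 were called by edgeR, 4 by DESeq2, and 5 had an unadjusted p under 0.05. Of 8 genes of the 2-cell stage 0 were called by either tool and 0 had an unadjusted p under 0.05. Of 11 sex-linked genes 0 were called by edgeR or DESeq2, and 1 had an unadjusted p under 0.05. The 1 germline gene called higher was Brdt, which encodes a chromatin reader of male germ cells, at 0.598 and 0.594 CPM in WT A and B and 1.899 and 1.23 in KO A and B (log2 fold change 1.38, SE 0.319, FDR = 0.0305).

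Rangrf, which encodes a regulator of nuclear transport and was singled out after its values were seen, had 369 counts in WT A, 0 in WT B, 0 in KO A and 370 in KO B. The fitted log2 fold change was 0.30 (FDR = 1), and within letters the difference was -7.15 in A and 7.46 in B. The files hold RSEM estimates per gene, and how reads were assigned at this locus was not tested.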
